A study of Mus musculus with 19 samples.

Results

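10 genes for receptors through which brain macrophages bind antibody, lipoproteins and dying cells were followed in RNA-seq of microglia-enriched brain homogenate: Fcgr1, Fcgr2b, Fcgr3, Fcgr4, Fcer1g, Cd36, Msr1, Marco, Scarb1 and Mertk. They were chosen by gene symbol, as the rows of the deposited gene table that map to these Fc receptor and scavenger receptor genes, and they are 10 of 49671 genes. All 10 were among the 23973 genes with enough signal to be tested, but Marco entered only through 3 HEM libraries.

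The samples came from 19 mice on the B6D2F1/J background. HEM mice carry a full-length human wild-type transgene under the murine Thy-1 promoter, integrated on the X chromosome, and WT mice are their controls; the Thy-1 promoter is widely used to drive transgenes in neurons. The 13-month group held 8 HEM and 4 WT animals and the 3-month group 4 HEM and 3 WT animals, each with its own library. The labels do not say whether the animals were prepared in batches. Depth ran from 63.3 to 95.8 M reads in genes for HEM at 13 months, 93.2 to 124.5 M for WT at 13 months, 74.7 to 112.9 M for HEM at 3 months and 83.0 to 106.8 M for WT at 3 months. The values are normalized counts, reads per gene divided by 1 size factor per library. The preparation was enriched and not pure. None of the 12 microglia markers was at 0 in all 19 libraries. The same held for every marker of endothelial cells, astrocytes, neurons, neutrophils and the 10 other cell types listed. Libraries HEM 13-month replicates 1 and 11 and HEM 3-month replicate 3 had been seen to stand apart on principal components in an earlier look at these data. In such a mixture, fewer cells of a type and less RNA per cell cannot be told apart.

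As background, Fc gamma receptors bind the constant part of IgG. The activating receptors signal through the adaptor FcRγ, whose immunoreceptor tyrosine-based activation motif (ITAM) recruits the kinase Syk, while FcγRIIB carries an inhibitory motif. Scavenger receptors such as CD36, SR-A (Msr1) and MARCO bind modified lipoproteins, microbes and protein aggregates, SR-BI (Scarb1) binds high-density lipoprotein, and MerTK takes up apoptotic cells that are coated with Gas6 or protein S.

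The first 5 genes form the Fc receptor system. Fcgr1 encodes the high-affinity IgG receptor FcγRI (ENSMUSG00000015947, mm10 chromosome 3, 96282909 to 96293969). Fcgr3 and Fcgr4 encode the activating receptors FcγRIII and FcγRIV (ENSMUSG00000059498, chromosome 1, 171051174 to 171064935, and ENSMUSG00000059089, chromosome 1, 171018920 to 171029761). Fcgr2b encodes the inhibitory receptor FcγRIIB (ENSMUSG00000026656, chromosome 1, 170958617 to 170976547), and Fcer1g encodes the adaptor FcRγ (ENSMUSG00000058715, chromosome 1, 171229572 to 171234365). All but Fcgr1 lie on chromosome 1.

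Promoter sequence from RefSeq (GRCm38.p6, the assembly of mm10) was matched by symbol for 8 of the 10 genes. The 150 bases before the RefSeq start are shown for the Fc receptor genes. They were chosen because the 3 activating receptor genes hold 1 exact run of 6 letters there that the inhibitory receptor and the adaptor lack. Capitals mark GAGGAA or its reverse complement TTCCTC, letters used here for the myeloid factor PU.1, searched on both strands. The shorter GGAA within them also occurs in the Fcgr2b and Fcer1g windows. The windows are chr3:96293970-96294119, minus strand for Fcgr1, chr1:171059395-171059544, minus strand for Fcgr3, chr1:171018776-171018925, plus strand for Fcgr4, chr1:170976072-170976221, minus strand for Fcgr2b and chr1:171234350-171234499, minus strand for Fcer1g.
Fcgr1: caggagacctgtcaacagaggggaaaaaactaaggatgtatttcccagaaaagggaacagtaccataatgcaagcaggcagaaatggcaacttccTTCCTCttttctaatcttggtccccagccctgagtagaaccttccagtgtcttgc
Fcgr3: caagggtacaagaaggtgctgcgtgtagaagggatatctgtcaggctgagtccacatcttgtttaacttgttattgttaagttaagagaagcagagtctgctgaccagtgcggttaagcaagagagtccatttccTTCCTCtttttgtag
Fcgr4: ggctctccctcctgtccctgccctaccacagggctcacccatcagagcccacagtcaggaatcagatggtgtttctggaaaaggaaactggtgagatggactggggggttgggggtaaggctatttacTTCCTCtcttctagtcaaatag
Fcgr2b: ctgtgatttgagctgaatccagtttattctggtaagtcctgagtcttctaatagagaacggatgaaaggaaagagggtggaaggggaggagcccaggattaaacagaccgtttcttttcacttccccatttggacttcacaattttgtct
Fcer1g: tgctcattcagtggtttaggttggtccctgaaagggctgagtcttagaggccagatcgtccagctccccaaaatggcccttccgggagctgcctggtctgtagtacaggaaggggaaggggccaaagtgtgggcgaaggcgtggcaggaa
The match starts at position -55 from the RefSeq start in Fcgr1, -15 in the Fcgr3 window shown and -22 in Fcgr4. Over the 300-base RefSeq promoters, 4 of the 8 genes hold the letters, the fourth being Marco at -146. Of all 32544 promoters of that length 28.1% hold them, so the letters are common. Neither the AP-1 letters TGANTCA (7.79% of all promoters) nor the antioxidant response letters TGACNNNGC (12.4%) occur in any of the 8, and a missing match says nothing of the factor.

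Fcer1g and Fcgr3 were the most abundant of the 10 per kb of annotated exon, a length that covers all transcripts of a gene. Expressed as normalized counts per kb of exon over all 19 libraries, the level was 18691 ± 5525 for Fcer1g and 13715 ± 4334 for Fcgr3 (SD, n = 19). Fcer1g ranked first and Fcgr3 came next in every library, although their ranges over libraries overlap. Mertk at 4728 ± 1007 and Fcgr1 at 4203 ± 1347 shared ranks 3 and 4 and did not differ beyond their spread. Fcgr2b followed at 1822 ± 491, and Fcgr4 at 861 ± 439 and Scarb1 at 823 ± 226 did not differ beyond theirs. Cd36 at 296 ± 101 and Msr1 at 109 ± 41.5 took ranks 8 and 9, and Marco at 2.59 ± 2.56 was last in all 19 libraries. The plot of normalized counts by group gives every library of every gene.

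**Figure D1:**
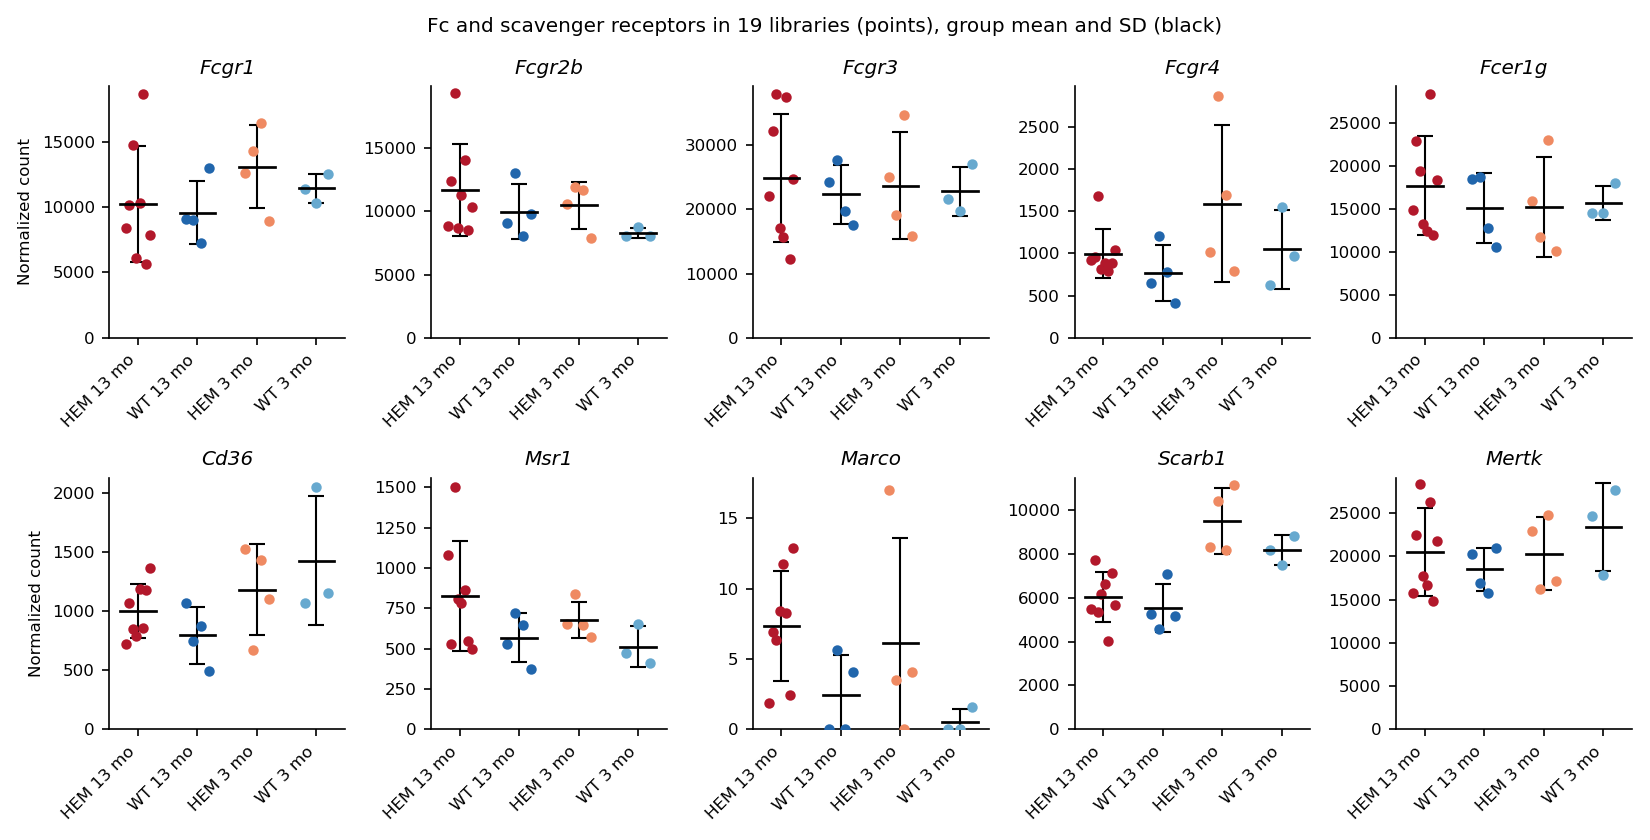
Normalized counts (vertical axes, linear from 0, each gene on its own scale) of the 10 receptor genes in each of 19 libraries (points) by group, with group mean and SD in black; SD bars that reach below 0 for Marco are cut at 0. Scarb1 is the gene whose 3-month libraries all lie above the 13-month libraries of the same genotype.

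Fcgr3 held most of the Fc gamma receptor level per kb of exon. Of the summed level per kb of the 4 receptor genes, Fcgr3 held 66.1% ± 5.40 (SD, n = 19), Fcgr1 20.5% ± 4.08, Fcgr2b 9.06% ± 1.72 and Fcgr4 4.29% ± 2.02. The share of Fcgr3 was lowest in HEM 3-month replicate 3, at 52.7%, which was also the library with the highest Fcgr4 share, at 10.9%. Per kb, the 3 activating receptors together exceeded inhibitory Fcgr2b by 6.79 to 15.4 times. The factor depends on the exon lengths used, 5.79 kb for Fcgr2b against 1.736 kb for Fcgr3. Before division by length, Fcgr3 averaged 24954 normalized counts and Fcgr2b 11694 in HEM at 13 months. The ratio of activating to inhibitory level per kb averaged 9.38 ± 1.93 for HEM (SD, n = 8) against 10.1 ± 1.18 for WT (SD, n = 4) at 13 months. At 3 months it was 10.9 ± 2.03 for HEM (n = 4) against 12.9 ± 2.25 for WT (n = 3), so all 4 groups overlapped. Fcer1g per kb was 1.01 ± 0.16 times the sum of the activating receptors per kb (SD, n = 19). Fcgr3 and Fcgr2b transcripts share 166 words of 50 bases, of 1733 in Fcgr3 and 5685 in Fcgr2b, so the division of reads from those stretches between these 2 genes is uncertain.

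**Figure D2:**
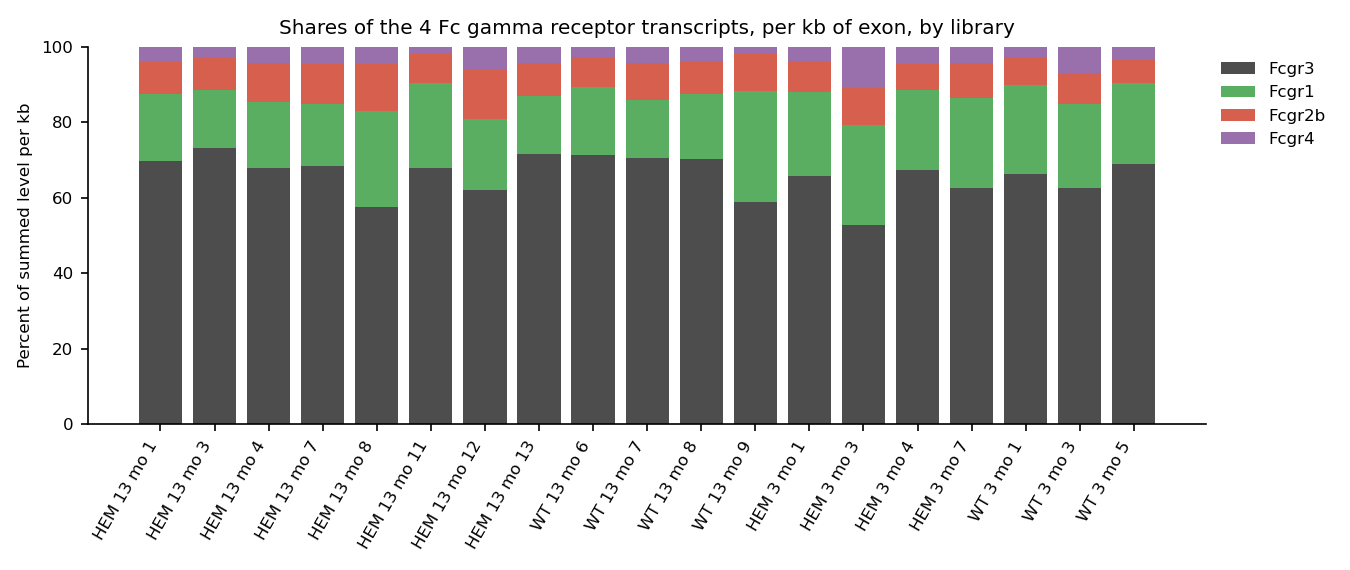
Percent of the summed level per kb of exon (vertical axis) held by each of the 4 Fc gamma receptor genes in each of 19 libraries (bars, by group and replicate). Fcgr3 is the largest segment in every library, from 52.7% to 73.2%.

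Fcer1g and Fcgr3, adaptor and receptor, also varied together from mouse to mouse. The gene nearest to Fcgr3 among 15267 genes was Fcer1g, and the gene nearest to Fcer1g was Fcgr3. Nearness was measured as the mean absolute difference of log2 levels over the 19 libraries, each gene centred on its own mean. It was 0.14 for this pair, against a median of 0.44 for Fcgr3 and 0.41 for Fcer1g over all those genes. Next after them came Zcwpw1 and the integrin Itgam for Fcgr3, and Zcwpw1 and Gcnt1 for Fcer1g. Fcgr4 did not track Fcgr3 as closely, at 0.46. The libraries share a normalization and a cell mixture, so these distances are a description. The nearest genes were Sh2b2, Bin2 and Tmem173 for Fcgr1, Rgs19, Bid and Fam49b for Fcgr2b, and Ifi30, Clec4a1 and Il4ra for Fcgr4.

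**Figure D3:**
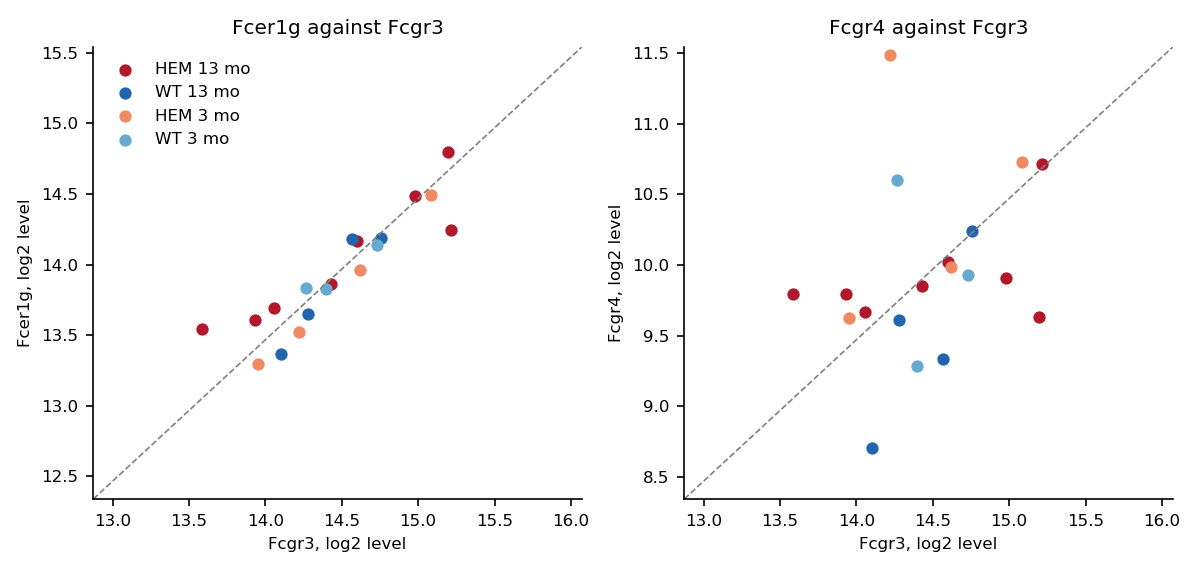
Log2 level of Fcer1g (left) and of Fcgr4 (right) against that of Fcgr3 in 19 libraries (points, coloured by group); the dashed line has a slope of 1 through the means. Fcer1g lies near the line, with a mean absolute difference of 0.14 after centring, and Fcgr4 scatters more widely, at 0.46.

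For HEM against WT at 13 months the question was whether the transgene changed receptor transcripts in older mice. None of the 10 genes was called at an adjusted p under 0.05 (limma-trend, Benjamini-Hochberg over all tested genes), where 12.2% of all tested genes were. Marco, which entered the test only through HEM libraries, was the 1 gene of the 10 with an unadjusted p under 0.05, and its value is not read as a difference. Over all tested genes 5965 of 23973 had such a p. For the 9 other than Marco, estimates ran from 0.02 to 0.49. The median log2 change over the 10, Marco counted, was 0.20 beside 0.03 over all tested genes. HEM and WT libraries overlapped for each of the 10, while 6.66% of tested genes did not overlap. DESeq2 and edgeR on the recovered reads called none of the 10 either.

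Fcgr3 ranged from 12292 to 37982 normalized counts with a median of 23458 in the 8 HEM mice at 13 months. The 4 WT mice had 17560, 19833, 24297 and 27728, all inside the HEM range. The log2 change was 0.07 ± 0.28 (SE, adjusted p = 0.921), with a 95% interval of the fold from 0.70 to 1.57. Fcer1g ran in HEM from 11954 to 28401 (median 16650), with WT at 10542, 12844, 18528 and 18693. Its change was 0.20 ± 0.24 (SE, adjusted p = 0.685).

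Fcgr1 was at 5632 to 18617 in HEM (median 9272) and at 7241, 8984, 9067 and 13007 in WT, a change of 0.02 ± 0.26 (SE, adjusted p = 0.979). Fcgr2b, the inhibitory receptor, was at 8493 to 19360 in HEM (median 10816) and at 8085, 9070, 9766 and 13042 in WT. Its change was 0.20 ± 0.19 (SE, adjusted p = 0.598). Fcgr4 was at 791 to 1681 in HEM (median 906) and at 417, 645, 779 and 1209 in WT, a change of 0.45 ± 0.32 (SE, adjusted p = 0.446). One HEM mouse, replicate 4, gave the highest HEM value of Fcgr4, Fcgr2b and Fcgr3. The estimates of Fcgr1 and Fcgr3 turned negative (-0.11 and -0.03) without the 3 libraries that stand apart.

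Among the scavenger receptors, Msr1 had the smallest p after Marco. Msr1 (ENSMUSG00000025044, mm10 chromosome 8, 39581685 to 39642673) was at 495 to 1504 in HEM with a median of 795, and at 372, 526.3, 644 and 720 in WT. The top 3 HEM values were above every other library of the study, and the lowest 3 lay within the WT range. The change was 0.49 ± 0.26 (SE, adjusted p = 0.260), with an interval of the fold from 0.96 to 2.05. Cd36 (ENSMUSG00000002944, chromosome 5, 17781690 to 17888801) was at 725 to 1364 in HEM (median 961) and at 494, 744, 876 and 1069 in WT, a change of 0.35 ± 0.25 (SE, adjusted p = 0.431). Scarb1 (ENSMUSG00000037936, chromosome 5, 125277087 to 125341094) was at 4035 to 7716 in HEM (median 5922) and at 4586, 5159, 5259 and 7117 in WT, a change of 0.12 ± 0.15 (SE, adjusted p = 0.701).

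Marco (ENSMUSG00000026390, chromosome 1, 120474538 to 120505024) was close to the limit of detection. It had 2 to 10 reads per library in HEM at 13 months, 0 to 6 in WT at 13 months, 0 to 19 in HEM at 3 months and 0 to 2 in WT at 3 months. As normalized counts, HEM at 13 months ran from 1.83 to 12.9 with a median of 7.61. WT at 13 months had 0, 0, 4.04 and 5.6, HEM at 3 months 0, 3.51, 4.06 and 17.0, and WT at 3 months 0, 0 and 1.59. Only 3 libraries reached 10, all HEM. The fitted change at 13 months, of a gene that passed the filter only through HEM libraries, was 1.62 ± 0.74 (SE, adjusted p = 0.178), and it ranged from 0.48 to 2.06 over the other settings that kept all libraries or dropped the 3 that stand apart. With so few reads a fitted fold depends on the pseudocount.

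Mertk (ENSMUSG00000014361, chromosome 2, 128698956 to 128802894), the receptor tyrosine kinase for apoptotic cells, had the smallest spread within groups after Scarb1. HEM mice at 13 months had 14896 to 28372 (median 19774) and WT mice 15818, 16943, 20325 and 20963. The change was 0.12 ± 0.18 (SE, adjusted p = 0.760), with an interval of the fold from 0.84 to 1.41. Its nearest genes in level over the 19 libraries were Frmd4a, Eef2k and Vsir, at 0.11 to 0.12.

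**Figure D4:**
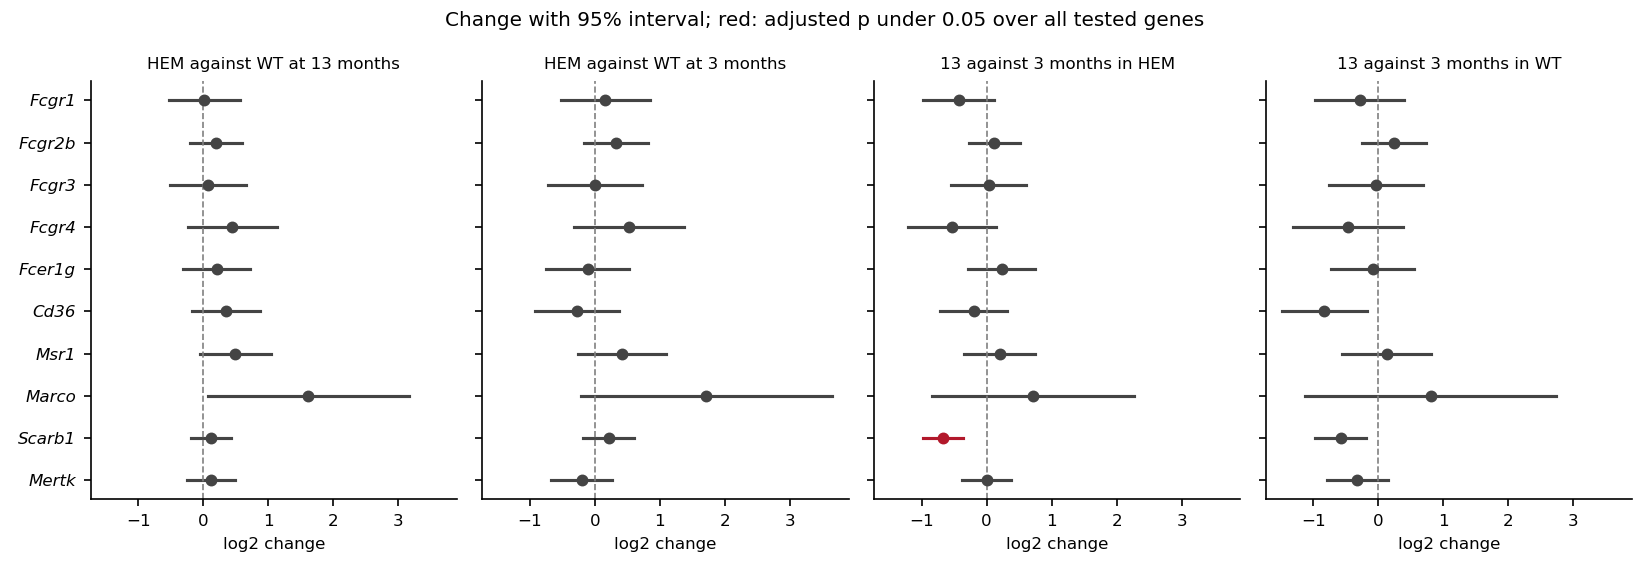
Log2 change (horizontal axis) with its 95% interval for the 10 genes in 4 comparisons; red marks an adjusted p under 0.05 over all tested genes. Scarb1, 13 against 3 months in HEM, is the only red point, at -0.67.

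At 3 months of age the same question gave no call among the 10 genes, and none over all genes (0.0%); 924 genes had an unadjusted p under 0.05, none of them a member. DESeq2 called 6 genes and edgeR 0. Estimates for the genes other than Marco ran from -0.27 to 0.52. The sparse Marco was at 1.71, which is not read as a difference. The median over the 10, Marco counted, was 0.19 beside 0.01 over all genes. All 10 overlapped between the groups, where 5.86% of tested genes did not. Fcgr2b was at 7865, 10556, 11715 and 11901 in HEM and 8021, 8079 and 8789 in WT, so that 3 of 4 HEM values were above every WT value (0.32 ± 0.24, SE, adjusted p = 1.0). Fcgr4 was at 789, 1013, 1697 and 2864 in HEM and 623, 972 and 1553 in WT, and its highest value was in replicate 3, a library that stands apart. Msr1 was at 574, 649, 655 and 836 in HEM and 412, 471 and 655 in WT (0.42 ± 0.33, SE, adjusted p = 1.0). Among the genes other than Marco, the 95% interval of the fold was widest for Fcgr4, 0.80 to 2.57, and narrower for Scarb1, 0.88 to 1.51, and Mertk, 0.63 to 1.20.

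The HEM effect itself was compared between the ages. For none of the 10 was the difference of the effects called, as over all tested genes (0.0%; 3551 genes and no member had an unadjusted p under 0.05, and DESeq2 called 938 genes). Cd36 had the largest estimate, 0.63 ± 0.40 (SE, adjusted p = 0.505), with HEM above WT in mean at 13 months and below it at 3 months.

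Age was where 1 of the 10 moved. Scarb1, which encodes SR-BI, fell with age in HEM mice. The 4 HEM mice at 3 months had 8198, 8315, 10410.3 and 11150.4 normalized counts, and the 8 at 13 months had 4035 to 7716 with a median of 5922. The groups did not overlap, as for 2.79% of tested genes. Scarb1 dropped by 0.67 on the log2 scale (SE 0.15, adjusted p = 0.0298), which is a fold of 0.63 with an interval from 0.51 to 0.78. In this comparison 1.62% of tested genes were called. The other 9 genes were not called. Their estimates ran from -0.53 to 0.23 apart from the sparse Marco, at 0.71.

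The 3 WT mice at 3 months had 7485, 8191 and 8848 and the 4 at 13 months had 4586, 5159, 5259 and 7117, again without overlap, as for 15.3% of tested genes. The change was -0.58 ± 0.18 (SE, adjusted p = 0.122), so it did not pass the test. None of the 10 was called in WT, where 0.709% of tested genes were. Scarb1 and Cd36 had an unadjusted p under 0.05, as did 3714 of the 23973 tested genes. The 2 age comparisons use different mice, and the difference between them was -0.09 ± 0.24 (SE, adjusted p = 0.910). DESeq2 called Scarb1 in HEM (adjusted p = 0.00278) and not in WT (adjusted p = 0.0633).

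The Scarb1 call in HEM did not hold in every setting. It was lost without HEM 13-month replicate 13 and without each of HEM 3-month replicates 1, 3, 4 and 7, with adjusted p up to 0.0977 and a change between -0.74 and -0.59 over all 19 such fits. Without the 3 libraries that stand apart the change was -0.51 (adjusted p = 0.102).

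Endothelial markers moved with Scarb1. Brain endothelium is a known site of SR-BI, and 9 endothelial markers had a mean log2 level of 14.88 ± 0.38 for HEM (SD, n = 4) against 14.70 ± 0.22 for WT (SD, n = 3) at 3 months. At 13 months it was lower, 13.81 ± 0.62 for HEM (SD, n = 8) against 13.64 ± 0.62 for WT (SD, n = 4). The median change of the 9 with age was -1.04 in HEM, where 2 passed the test, and -1.10 in WT, where 0 did. Their summed normalized counts ran from 228225 to 451768 in HEM at 3 months and from 75239 to 278661 in HEM at 13 months. None of the 9 was at 0 in all 19 libraries. The library lowest in Scarb1, HEM 13-month replicate 11, was also lowest in these markers (12.80), and the library highest in both was HEM 3-month replicate 7 (15.38). With this level in the model, a setting added after the values were seen, the Scarb1 change with age was -0.19 ± 0.09 in HEM (SE, adjusted p = 0.331) and -0.11 ± 0.10 in WT (SE, adjusted p = 0.671). That model called 10 genes in HEM against 388 without it. The marker level itself was lower at 13 months, so this fit cannot tell it apart from age. The part of endothelial cells in the Scarb1 change was not tested. With the microglia marker level in its place the change in HEM was -0.75 ± 0.13 (SE, adjusted p = 0.0127). With the neutrophil marker level it was -0.59 ± 0.19 (SE, adjusted p = 0.330), so the call was lost there too. The genes nearest to Scarb1 over the libraries were Tinagl1, Pnpla6 and Dll1, at 0.11 to 0.14 against a median of 0.39.

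**Figure D5:**
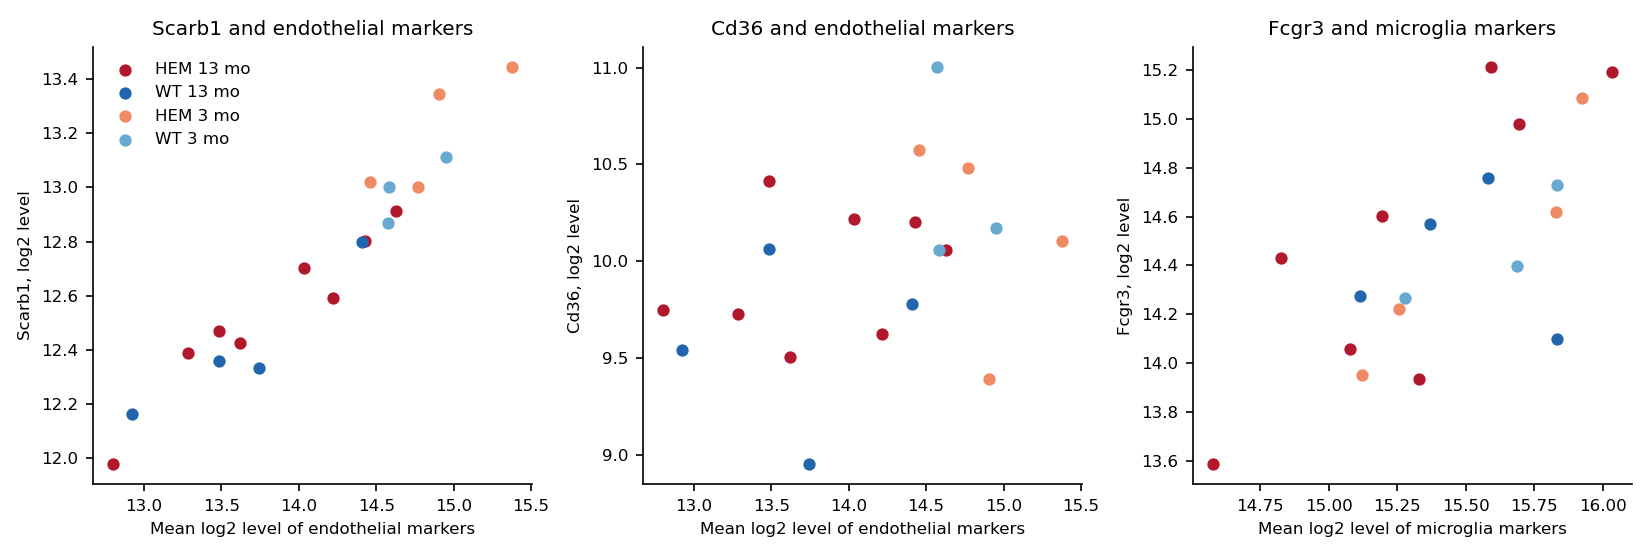
Log2 level of Scarb1 and Cd36 against the mean log2 level of 9 endothelial markers, and of Fcgr3 against that of 12 microglia markers, in 19 libraries (points, coloured by group). The lowest Scarb1 library is also the lowest in endothelial markers (12.80), and the highest is the highest in both (15.38).

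Cd36, a fatty acid and oxidized lipoprotein receptor of macrophages and capillary endothelium, had 1066, 1154 and 2052 normalized counts in WT at 3 months and 494, 744, 876 and 1069 at 13 months. The groups overlapped by a single 13-month library, and the change was -0.83 ± 0.31 (SE, adjusted p = 0.191). In HEM mice Cd36 was at 670.0, 1099, 1429 and 1527 at 3 months, overlapping the 725 to 1364 seen at 13 months (-0.20 ± 0.25, SE, adjusted p = 0.735). With the endothelial marker level in the model the WT change was -0.80 ± 0.38 (SE, adjusted p = 0.327).

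Fc receptor genes overlapped between the ages in both genotypes. Fcgr1 was at 8923, 12618, 14305 and 16461 in HEM and 10344, 11406 and 12566 in WT at 3 months, against medians of 9272 and 9026 at 13 months. Its changes were -0.43 ± 0.26 in HEM (SE, adjusted p = 0.429) and -0.28 ± 0.33 in WT (SE, adjusted p = 0.735). The estimate in HEM was -0.53 ± 0.32 for Fcgr4 (SE, adjusted p = 0.425) and, for Fcgr2b, 0.12 ± 0.19 (SE, adjusted p = 0.801). Fcgr3 was at 15831, 19106, 25126 and 34780 in HEM and 19726, 21601 and 27156 in WT at 3 months, with changes of 0.03 ± 0.28 and -0.04 ± 0.35 (SE, adjusted p = 0.971 and 0.973). Fcer1g was at 10067, 11790.1, 15973 and 23097 in HEM and 14545, 14569 and 17996 in WT at 3 months, with changes of 0.23 ± 0.24 and -0.09 ± 0.30 (SE, adjusted p = 0.681 and 0.929). The level of the 12 microglia markers averaged 15.53 ± 0.40 for HEM (SD, n = 4) against 15.60 ± 0.29 for WT (SD, n = 3) at 3 months. At 13 months the averages were 15.29 ± 0.48 (SD, n = 8) against 15.47 ± 0.31 (SD, n = 4). Its part in these values was not tested beyond the covariate fit, in which none of these 5 genes was called.

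Mertk was at 16258, 17163, 22974 and 24827 in HEM and 17795, 24668 and 27695 in WT at 3 months. Its change with age was 0.00 ± 0.18 in HEM (SE, adjusted p = 0.998) and -0.32 ± 0.22 in WT (SE, adjusted p = 0.528). For Msr1 the estimates were 0.20 ± 0.26 in HEM (SE, adjusted p = 0.749) and 0.13 ± 0.33 in WT (SE, adjusted p = 0.899). Libraries of both genes overlapped between the ages.

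Partner genes of the receptors were called between genotypes at 13 months about as often as all tested genes. The 5 lists held 99 distinct genes, all tested: other Fc receptors and adaptors (14), Fc receptor signalling (24), other scavenger receptors (22), TAM receptors and apoptotic cell uptake (22) and lipid handling (18). Stab2 is on 2 of them. In HEM against WT at 13 months 6 were called higher and 4 lower, 10 of 99, which is near the 12.2% over all genes. The 6 include Cd5l, whose WT mean lay below the filter value and whose value is not read as a difference. Neutrophil markers stood higher in the same mice: 14 of 15 were called, and they averaged a log2 level of 13.27 ± 1.06 for HEM (SD, n = 8) against 11.04 ± 0.66 for WT (SD, n = 4). Their summed normalized counts ran from 72864 to 630618 in HEM and from 45079 to 120727 in WT. Also called higher were 7 of 11 monocyte markers (1 was lower), 6 of 9 eosinophil, basophil and mast cell markers, 6 of 8 platelet markers, 4 of 8 erythroid markers and 4 of 9 T and NK cell markers. Choroid plexus markers moved the other way: 7 of 7 were called lower, with a median log2 change of -0.98. Their mean log2 level was 14.80 ± 0.33 for HEM (SD, n = 8) against 15.77 ± 0.22 for WT (SD, n = 4), and their groups did not overlap, at 14.29 to 15.28 and 15.44 to 15.90. Of 8 astrocyte markers 1 was lower. The part of these cell types in the partner genes' values was not tested. Leaving out single libraries moved the count from 10 to between 3 (without WT replicate 9) and 15 (without HEM replicate 7). With the neutrophil marker level in the model none of the 10 calls held, and 0 genes over the whole table were called. That level itself was higher in HEM at 13 months, so this fit cannot tell it apart from genotype.

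Of the 14 genes listed as other Fc receptors and adaptors, 1 was called higher, beside 12.2% of all tested genes called in either direction. It was Hcst, which encodes the adaptor DAP10 (763 ± 263 for HEM, SD, n = 8, against 421 ± 103 for WT, SD, n = 4, 0.81 ± 0.25, SE, adjusted p = 0.0418). The list's median was 0.20. Among signalling genes 2 of 24 were called, both higher, with a median of 0.19. Rac2, a small GTPase of blood cells that takes part in the phagocyte oxidase, went from 9062 ± 2020.3 in WT to 14764 ± 1993 in HEM (0.72 ± 0.16, SE, adjusted p = 0.00588). Fgr, a Src family kinase of myeloid cells, went from 1365 ± 275 to 2923 ± 1074 (1.03 ± 0.32, SE, adjusted p = 0.0403). With the neutrophil marker level in the model, Rac2 differed by 0.29 and Fgr by -0.15. Syk, the kinase the ITAM recruits, was not called.

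Among other scavenger receptor genes 2 of 22 were called higher, Cd5l counted, and 1 lower, beside 12.2% of all tested genes called. Olr1, the oxidized LDL receptor LOX-1, was at 210.3 ± 91.5 for HEM (SD, n = 8) against 42.2 ± 7.97 for WT (SD, n = 4), and rose (2.16 ± 0.37, SE, adjusted p = 0.00214). It kept its call in all 19 fits that left out 1 library, and the change was 1.10 (adjusted p = 0.234) with the neutrophil marker level in the model. Cd5l, a secreted macrophage scavenger protein, was at 49.5 ± 35.7 and 5.54 ± 3.34 (2.69 ± 0.80, SE, adjusted p = 0.0339), and it lost its call without the 3 libraries that stand apart (adjusted p = 0.0902). Its WT mean lay below the filter value of 10. As for Marco, its value is not read as a difference. Scara5, a ferritin receptor, fell from 1837 ± 162 in WT to 1252 ± 252 in HEM (-0.58 ± 0.18, SE, adjusted p = 0.0451), a call that 6 of 19 fits with 1 library left out kept. The list's median was -0.02.

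Of 22 genes of TAM receptors and apoptotic cell uptake, 1 was called higher and 2 lower, beside 12.2% of all tested genes called. The list's median was -0.19. Gas6, the bridging ligand of MerTK, fell from 48184 ± 3382 in WT to 32856 ± 3907 in HEM (SD, n = 4 and 8, -0.56 ± 0.13, SE, adjusted p = 0.00929), and kept its call in all 19 fits with 1 library left out. The choroid plexus markers, 7 of 7, were lower in the same HEM mice. Their part in this value or in those of Gulp1, Npc2 and Scara5 was not tested. Gulp1, an engulfment adaptor, fell from 2447 ± 217 to 1797 ± 332 (-0.46 ± 0.12, SE, adjusted p = 0.0187). Anxa1, the phospholipid-binding annexin A1 that neutrophils also hold, rose from 4630.2 ± 801 to 10766 ± 4730 (1.09 ± 0.33, SE, adjusted p = 0.0361), and with the neutrophil marker level in the model it was at -0.23. Of 18 lipid handling genes 1 fell, the lysosomal cholesterol carrier Npc2 (46897 ± 3472 in WT and 36575 ± 5057 in HEM, -0.37 ± 0.10, SE, adjusted p = 0.0242).

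With age in HEM mice 2 of the 99 partner genes fell and none rose, beside 1.62% over all genes. This direction was not kept by every setting: DESeq2 called 7 higher and 4 lower, and without HEM 13-month replicate 3 there were 3 higher and 2 lower. Among cell markers in this comparison 2 of 9 endothelial and 1 of 7 choroid plexus markers were called lower, and 3 of 8 platelet, 3 of 8 astrocyte, 2 of 9 eosinophil, basophil and mast cell and 1 of 8 erythroid markers higher; their part was not tested for these genes. Lipa, the lysosomal acid lipase that frees cholesterol from lipoproteins, went from 10118 ± 1423 at 3 months to 6936 ± 1094 at 13 months (SD, n = 4 and 8, -0.55 ± 0.12, SE, adjusted p = 0.0303). Fcgrt, the neonatal Fc receptor that recycles IgG in endothelium and macrophages, went from 21010 ± 2297 to 13977 ± 2970 (-0.61 ± 0.14, SE, adjusted p = 0.0379). Both calls were lost in some fits that left out 1 library, Lipa keeping it in 15 and Fcgrt in 13 of 19. In WT Fcgrt differed by -0.48 ± 0.18 (SE, adjusted p = 0.193). None of the 99 was called with age in WT or between genotypes at 3 months. Where a list had no call, its 2 genes with the smallest p were as follows. With age in HEM they were Vav3 (0.69 ± 0.22, SE, adjusted p = 0.118) and Src for signalling, Megf10 (0.87 ± 0.24, SE, adjusted p = 0.0663) and Olr1 for scavenger receptors, and Xkr8 and Tyro3 for apoptotic cell uptake. With age in WT they were Fcgrt and Fcrl5, Fyn and Rac2, Scara5 and Mrc1, Gulp1 and Rac1, and Npc2 and Apoe, which encodes apolipoprotein E (0.53 ± 0.16, SE, adjusted p = 0.102). Between genotypes at 3 months they were Fcrl5 and Trim21, Lat2 and Syk, Megf11 and Cxcl16, a scavenger receptor that is also a chemokine (0.77 ± 0.27, SE, adjusted p = 1.0), Havcr1 and Tyro3, and Plin2 and Npc2. For the difference of the HEM effects between ages they were Fcrla and Hcst, Rac2 and Syk, Olr1 (1.71 ± 0.59, SE, adjusted p = 0.173) and Scara5, Gulp1 and Gas6, and Npc2 and Lipa.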

How the data were processed

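RNA of microglia-enriched brain homogenate was extracted with an AllPrep kit and converted to NEBNext Ultra II libraries, per the labels' protocols. Trimmomatic, HISAT2, featureCounts, DESeq2 and mm10 are named in the submitters' processing notes; their versions, the annotation and the strand setting are not given in the sources used here. What the authors deposited is a signal, gene counts scaled by a size factor for each library: 100% of the values were whole multiples of a library's step (tolerance 0.01). The series-wide table repeats the 19 libraries. No pair of libraries was identical, and replicates correlated at 0.942 to 0.981 in log2.

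Tests used limma-trend (limma 3.58.1, R 4.3.3, robust, two-sided) on log2(value + 1), which understates changes of low genes, for genes reaching 10 in 3 or more libraries. The 4 groups shared 1 model. P-values were adjusted by Benjamini-Hochberg over all tested genes, with calls at 0.05; intervals are 95%. Symbols (99.5% of IDs), positions and exon lengths came from GENCODE M21. Named were all 10 receptors, up to 4 called genes per direction and pathway list (2 by smallest p where a list had no call), and the 3 nearest genes of each receptor among those with a mean log2 level of at least 5. Members and lists were chosen with earlier results of these data known. Alternatives were edgeR 4.0.16 and DESeq2 1.42.0 on recovered reads, other filters, pseudocounts and scaling, marker covariates, a replicate block and left-out libraries. The limma step was tested on simulated data.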

Additional observations from a re-analysis of the deposited data

Results flagged for a closer look

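One value among the 10 receptors stood far from its group. In HEM mice at 13 months, replicate 4 had 1681 normalized counts of Fcgr4, the activating IgG receptor FcγRIV, while the other 7 lay between 791 and 1037; its gap to the next library was 0.641 of the whole range on the log2 scale. In all, 30 groups of 4 or 8 libraries were examined this way, and chance flags about 1 group in 20. The same library had the highest HEM values of Fcgr2b (19360), Fcgr3 (37982) and Msr1 (1504) at that age.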

How the results depend on the processing

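Over the single genes named, settings that kept or dropped several libraries left 621 values in direction and side of the threshold, weakened 41 calls and turned 18 estimates; fits without 1 library gave 873, 70 and 33. The cause was not tested. None of the receptors' turned estimates had been called. In HEM against WT at 13 months, Fcgr1 and Fcgr3 were at -0.11 and -0.031 without the 3 libraries that stand apart, and Fcgr4, Fgr and Anxa1 at -0.029, -0.15 and -0.23 with the neutrophil covariate, as was Fcgr3 at 3 months (-0.055). With the microglia covariate Fcgr3 and Fcer1g were at 0.075 and 0.0058 with age in WT. Without the 3 libraries Fcgr3 and Mertk were at -0.16 and -0.11 with age in HEM.

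Replicate numbers were not treated as pairing the mice. The mean of its group was first taken off each gene's log2 level. The remaining deviations of same-numbered HEM and WT libraries correlated at 0.107 and 0.126 at 13 months and 0.0211 and -0.0381 at 3 months, with 2 pairs each. Differently numbered libraries were not compared this way, so whether the numbers pair mice was not settled. With the number as a replicate block, Fcgr1, Fcgr2b, Fcgr3, Fcgr4 and Fcer1g were at -0.051, -0.099, -0.51, -0.36 and -0.33 at 13 months, and Fcgr3, Fcgr4 and Fcer1g at 0.85, 0.55 and 0.61 with age in WT. The block left 0 receptors and 0 partner genes called in the 4 comparisons of groups, and over all genes it called 0 at 13 months, where 2918 were called without it.

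With age in HEM, the 1 receptor called (Scarb1) became 0 with the compared groups alone, the neutrophil or endothelial covariate, or without the 3 libraries, and 0 to 1 with 1 library left out. Partner genes called at 13 months were 18 by DESeq2, 6 with no filter, 6 with the compared groups alone, 0 with the neutrophil and 17 with the microglia covariate, and 3 to 15 with 1 library left out. With age in HEM the 2, both lower, became 11 by DESeq2 (7 higher, 4 lower), 0 with the compared groups alone or the neutrophil covariate, 1 without the 3 libraries, and 0 to 5 with 1 library left out. With age in WT the 0 became 1 by DESeq2 and 1 with the microglia covariate.

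With 1 library left out, estimates at 13 months ran from -0.12 to 0.18 for Fcgr1 and -0.035 to 0.20 for Fcgr3. At 3 months they ran from -0.20 to 0.18 for Fcgr3, -0.34 to 0.063 for Fcer1g and -0.45 to 0.022 for Cd36. With age in WT they ran from -0.15 to 0.092 for Fcgr3, -0.20 to 0.074 for Fcer1g and -0.016 to 0.32 for Msr1. With age in HEM they ran from -0.014 to 0.19 for Fcgr2b, -0.14 to 0.24 for Fcgr3, -0.011 to 0.91 for Marco and -0.098 to 0.11 for Mertk. Marco was not tested with a filter at 50 or in 3 of these fits. Of the 19 fits Hcst kept its call in 8, Fgr in 9, Anxa1 in 10, Cd5l in 11, and Gulp1 and Npc2 in 17.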
